A study of Mus musculus with 12 samples.

Results

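The genes described here are 8 regulators of silencing marks on chromatin: the DNA methyltransferases Dnmt1, Dnmt3a and Dnmt3b, the adaptor Uhrf1, the DNA demethylating dioxygenases Tet1, Tet2 and Tet3, and the histone methyltransferase Ezh2. They were chosen by name, as writers and erasers of silencing marks linked to T cell memory, and all 8 were found among the 55335 genes of the table. DNMT3A and DNMT3B place methyl groups on cytosines that carry none (de novo methylation), while DNMT1, brought to newly copied DNA by UHRF1, restores the pattern on the daughter strand after replication (maintenance methylation). TET enzymes oxidise 5-methylcytosine, which starts its removal. EZH2 is the catalytic subunit of the Polycomb repressive complex 2 (PRC2) and methylates lysine 27 of histone H3, a mark of silenced genes. In CD8 T cells these enzymes are known for shutting genes of naive and memory cells during effector differentiation and for the reopening of such genes in cells that become memory cells.

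The RNA came from splenic CD8 T cells of C57BL/6 OT-I mice, whose T cells bear a single transgenic receptor specific for a peptide of ovalbumin. The cells had received an empty retroviral vector (control) or a vector that expresses Batf3, an AP-1 family transcription factor, and transduced cells were sorted. A culture of 6 h followed, either in 100 ng/ml IL-15 (called non-stimulated) or with anti-CD3 and anti-CD28 antibodies, given at 1 µg/ml (called stimulated), which made 4 groups of 3 libraries. IL-15 is named for the non-stimulated cultures alone, so the absence of IL-15 and the antibodies cannot be told apart. Age and number of mice are not given in the labels. The labels call the replicates technical, so every SD, SE and p-value below measures the spread between such replicates and not that between mice or transductions.

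Total counts lay between 14211564 and 14468231 per library, and every pair of replicates differed by more than sampling noise. Chi-square per degree of freedom between replicates lay between 1.46 and 2.16, except for the third stimulated Batf3 library, at 3.16 and 2.62 against its replicates. Without that library every call on the 8 regulators and its direction stayed the same. Batf3 itself lay between 5.83 and 7.43 CPM in the non-stimulated control libraries and between 466.8 and 473.8 CPM in the non-stimulated Batf3 libraries. In stimulated cells it lay between 17.6 and 19.1 CPM with the control vector and between 413 and 434 CPM with the Batf3 vector, so it matched the labels in all 12 libraries. CPM are read counts relative to library size, with the sizes scaled by TMM. Counts per gene hold vector and endogenous Batf3 transcripts together. Of 7 CD8 T cell markers none was at 0 in any group, and their summed level lay between 2209 and 2857 CPM. Summed markers of B, myeloid, dendritic, NK and erythroid cells (3 to 5 genes each, with 1 to 3 of them at 0 in each group) stayed at or below 12.5 CPM in every library.

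The regulators lie on 7 chromosomes (GENCODE M21, GRCm38; all are protein coding). Dnmt1 (ENSMUSG00000004099) is on chromosome 9, from 20907209 to 20959888. Dnmt3a (ENSMUSG00000020661) is on chromosome 12, from 3806007 to 3914443, and Dnmt3b (ENSMUSG00000027478) on chromosome 2, from 153649450 to 153687730. Uhrf1 (ENSMUSG00000001228) is on chromosome 17, from 56303321 to 56323486. Tet1 (ENSMUSG00000047146) is on chromosome 10, from 62804570 to 62908996, Tet2 (ENSMUSG00000040943) on chromosome 3, from 133463679 to 133545139, and Tet3 (ENSMUSG00000034832) on chromosome 6, from 83362373 to 83459084. Ezh2 (ENSMUSG00000029687) is also on chromosome 6, from 47530139 to 47595341. Short antisense or overlapping models lie across Dnmt3a (133 bases shared with Dnmt3aos), Tet2 (43 bases shared with Gm42567) and Ezh2 (174 bases shared with Gm26625). Dnmt3aos had 13 counts and Gm42567 had 10 counts over all 12 libraries.

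Promoter windows of RefSeq (GRCm38.p6), from 250 bases before to 50 after each annotated start, were available for all 8 regulators, 13 windows in all. E2F factors are known for driving genes of DNA replication. Stretches are shown for Dnmt1, Uhrf1 and Ezh2 because only their windows held a match to the E2F-type letters given next. All 3 fell on stimulation, as described below, and so did Tet1, whose window held 0 matches. The part of E2F factors in these falls was not tested. The E2F-type letters TTTCCCGC, TTTCGCGC, TTTGCCGC and TTTGGCGC were searched on both strands. They occurred in 3 of the 13 windows, 1 each of Dnmt1, Uhrf1 and Ezh2, and in 2.26% of all 32851 windows. The stretches around the matches read as follows, 5′ to 3′ on the strand of the gene, with the match in capitals.
Dnmt1, chr9:20952824-20952853, minus strand: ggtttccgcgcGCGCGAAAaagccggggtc
Dnmt1, chr9:20952574-20952601, minus strand: gcggggcagcgTTTGGCGCgggctgtgc
Uhrf1, chr17:56304117-56304146, plus strand: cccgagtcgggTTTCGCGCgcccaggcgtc
Ezh2, chr6:47595009-47595038, minus strand: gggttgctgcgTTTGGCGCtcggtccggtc
Both Dnmt1 matches and the Ezh2 match lie in an annotated 5′ UTR exon of at least 1 transcript (GENCODE M21). They start 219 bases before and 34 bases after the Dnmt1 start, and 4 bases after the Ezh2 start. The Uhrf1 match starts 185 bases before its start, in an intron of a longer Uhrf1 transcript, and the 250 bases before that start hold no annotated exon.
Uhrf1, chr17:56304063-56304312, plus strand: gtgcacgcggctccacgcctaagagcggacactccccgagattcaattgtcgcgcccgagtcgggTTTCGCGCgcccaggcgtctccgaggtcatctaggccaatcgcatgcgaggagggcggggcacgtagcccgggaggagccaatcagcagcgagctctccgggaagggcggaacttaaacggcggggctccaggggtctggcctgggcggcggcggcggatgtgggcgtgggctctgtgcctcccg
The AP-1 letters TGANTCA, the type of site that BATF-family dimers with JUN can bind, occurred in 0 of the 13 windows and in 7.81% of all windows. The windows of the regulators held between 2 and 57 CG dinucleotides, against a median of 7 over all windows. Those with E2F-type letters held 33 (Dnmt1), 33 (Uhrf1) and 31 (Ezh2). Each of the E2F-type words contains CG, and the share over all windows was not matched for CG content. A match is a run of letters and not a site shown to be bound, and its absence concerns these windows only.

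Stimulation moved the regulators in opposite directions. In control cells 4 of the 8 rose (Dnmt3a, Dnmt3b, Tet2 and Tet3) and 4 fell (Dnmt1, Uhrf1, Tet1 and Ezh2). Over all 15702 tested genes 80.3% were called in this comparison (39.6% rose and 40.7% fell), so being called is no particular property of these genes. All 8 passed the filter on low counts. Tet1 did so through its non-stimulated libraries alone, with at most 1 read in each stimulated library. On stimulation it could therefore be called only as fallen. Calls are those with an adjusted p below 0.05, from the quasi-likelihood test of edgeR with Benjamini-Hochberg adjustment over all tested genes. With the Batf3 vector the same 4 genes rose and the same 4 fell, where 82.7% of all genes were called (41.2% rose and 41.4% fell). In bulk RNA, fewer cells that express a gene and less RNA per cell cannot be told apart.

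**Figure D1:**
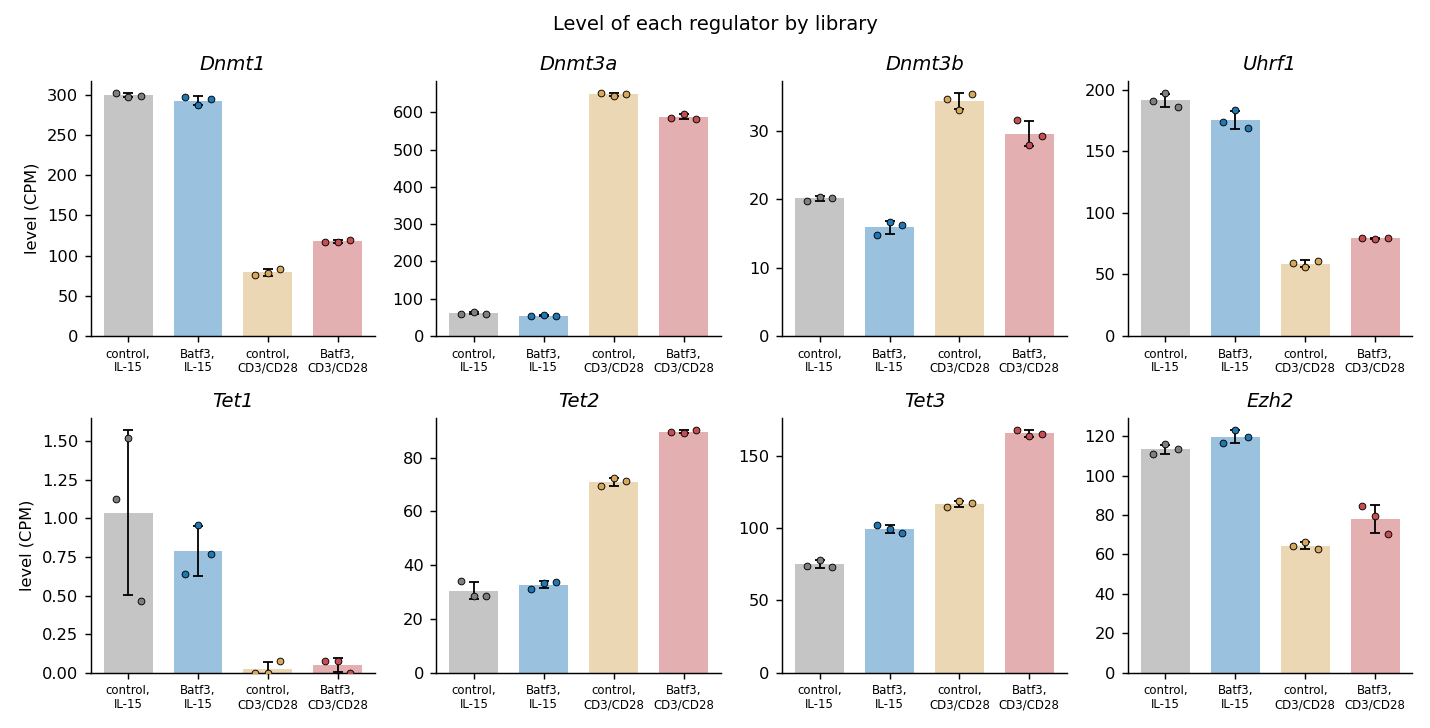
Level of each regulator in CPM (y axis, from 0, on its own scale per gene) in the 4 groups, with bars for the mean of 3 libraries, error bars for the SD and points for single libraries. Dnmt1, Uhrf1 and Ezh2 are lower and Dnmt3a, Dnmt3b, Tet2 and Tet3 higher in stimulated cells with both vectors, and Tet1 stays at or below 1.52 CPM throughout.

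Dnmt1, the maintenance methyltransferase, measured 302, 298 and 298 CPM in the non-stimulated control libraries and 75.2, 78.5 and 83.7 CPM in the stimulated ones. Cells with the Batf3 vector gave 297, 287 and 295 CPM without and 116, 117 and 119 CPM with stimulation. The stimulated libraries lay below all non-stimulated ones, and among them those with Batf3 lay above the controls. The libraries are technical replicates, and the share of all genes whose groups also lay apart was not counted. This holds for the other regulators below as well. The log2 change on stimulation was -1.92 ± 0.04 (SE, n = 3 libraries per group) in control cells and -1.32 ± 0.03 in Batf3 cells, a 3.78-fold and a 2.49-fold fall.

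Uhrf1 followed the same order. It measured 191, 197 and 186 CPM in non-stimulated control libraries and 58.9, 55.6 and 61.2 CPM in stimulated ones. In Batf3 libraries the values were 174, 183 and 169 CPM, and 79.2, 79.0 and 79.4 CPM after stimulation. No pair of groups overlapped, and the log2 changes on stimulation were -1.71 ± 0.04 (control) and -1.15 ± 0.04 (Batf3).

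Genes of the cell cycle fell on stimulation as well. All 20 genes of a list of DNA replication genes fell on stimulation of control cells (median log2 change -1.62, against -0.01 over all tested genes), among them Lig1, the ligase that joins Okazaki fragments (-2.90 ± 0.07), and Rrm2, a subunit of ribonucleotide reductase (-2.79 ± 0.05). All 20 genes of a mitosis list fell too (median -2.48), with Ccnb2, a mitotic cyclin, at -4.09 ± 0.12 and Nusap1, a spindle protein, at -3.85 ± 0.08. In Batf3 cells 19 of the 20 replication genes and all 20 mitosis genes fell. The part of cell cycle state in the levels of Dnmt1 and Uhrf1 was not tested.

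The de novo enzymes went the other way. Dnmt3a measured 59.8, 63.8 and 57.8 CPM in non-stimulated control libraries and 651, 644 and 649 CPM in stimulated ones, a 10.7-fold rise. In Batf3 libraries it measured 53.3, 56.7 and 53.4 CPM, and 585, 596 and 583 CPM after stimulation, a 10.8-fold rise. The stimulated and non-stimulated libraries were far apart, and the log2 changes were 3.42 ± 0.03 in control and 3.43 ± 0.04 in Batf3 cells. Of all tested genes 375 rose more than Dnmt3a in control cells and 373 in Batf3 cells.

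Dnmt3b also rose, by less. It measured 19.8, 20.4 and 20.3 CPM in non-stimulated and 34.6, 33.0 and 35.4 CPM in stimulated control libraries. The Batf3 libraries gave 14.8, 16.7 and 16.2 CPM, and 31.6, 27.9 and 29.3 CPM after stimulation. The 4 groups did not overlap, and stimulation raised the level by 0.77 ± 0.07 on the log2 scale in control and by 0.90 ± 0.08 in Batf3 cells.

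On a per-length scale (CPM per kb of exon), which allows levels of different genes to be set side by side, the leading methyltransferase changed from Dnmt1 to Dnmt3a. Dnmt1 held 84.3 ± 0.451% of the summed level of the 3 methyltransferase genes in non-stimulated control cells and 19.0 ± 0.818% in stimulated ones (SD, n = 3). Dnmt3a held 7.55 ± 0.371% and 69.1 ± 0.865%, and Dnmt3b 8.19 ± 0.168% and 11.9 ± 0.290%. With the Batf3 vector Dnmt1 held 86.1 ± 0.759% without and 27.9 ± 0.404% with stimulation, and Dnmt3a 7.10 ± 0.325% and 61.9 ± 0.642%. The summed level itself was 48.2 and 56.4 CPM per kb in control cells and 46.1 and 57.1 CPM per kb in Batf3 cells, without and with stimulation. The ratio of Dnmt3a to Dnmt1 in stimulated cells was 3.64 ± 0.200 with the control and 2.22 ± 0.0450 with the Batf3 vector, and the libraries of the groups did not overlap. These ratios use the union of exons as length, and isoforms of Dnmt3a or of the other genes are not separated by gene counts. Without length scaling Dnmt3a held 15.9% and Dnmt3b 5.30% in non-stimulated control cells, the reverse of their order per length.

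**Figure D2:**
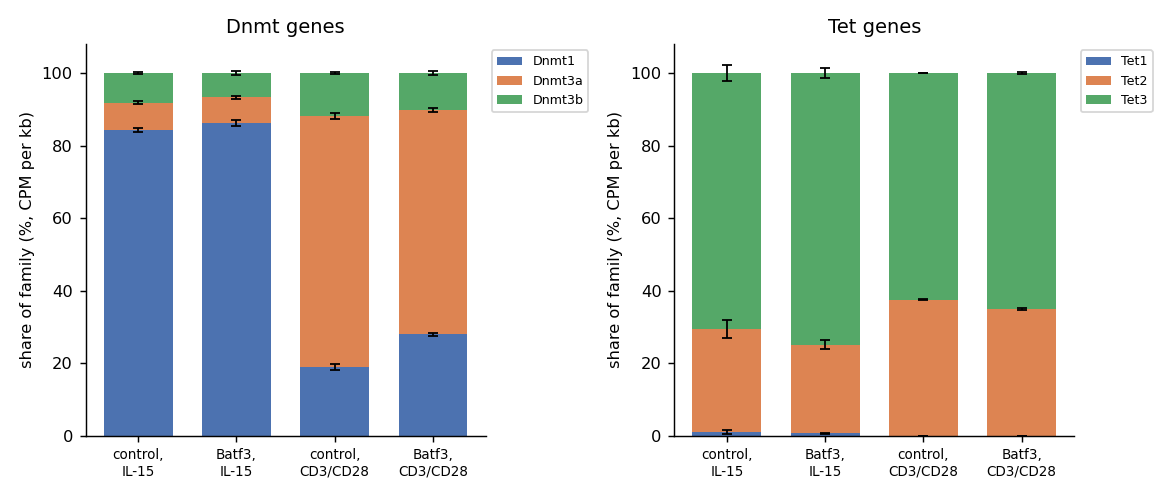
Share of each gene in the summed level of its family (y axis, percent of CPM per kb), as stacked bars for the 4 groups, with error bars for the SD of 3 libraries at the upper edge of each segment. Dnmt1 falls from 84.3% to 19.0% in control cells while Dnmt3a reaches 69.1%, and Tet3 stays the largest Tet segment in every group.

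Among the dioxygenase genes Tet3 was the highest, Tet2 followed and Tet1 was close to absent. Tet3 measured 74.0, 77.9 and 72.8 CPM in non-stimulated and 115, 119 and 117 CPM in stimulated control libraries. Batf3 libraries gave 102, 99.0 and 96.8 CPM, and 168, 163 and 165 CPM after stimulation. All 4 groups were apart, and both the vector and stimulation went with a higher level. The log2 changes on stimulation were 0.64 ± 0.04 (control) and 0.73 ± 0.04 (Batf3).

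Tet2 measured 34.0, 28.5 and 28.7 CPM in non-stimulated and 69.3, 72.3 and 71.1 CPM in stimulated control libraries. The Batf3 libraries gave 31.3, 33.3 and 33.7 CPM, and 89.6, 89.1 and 90.3 CPM after stimulation. The 2 non-stimulated groups overlapped, since the first control library lay above all 3 Batf3 libraries, and the stimulated groups did not. Stimulation raised Tet2 by 1.22 ± 0.06 (control) and by 1.45 ± 0.05 (Batf3) on the log2 scale.

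Tet1 had 47 reads in the 3 non-stimulated control libraries together and 1 read in the stimulated ones. The counts per library were 17, 23 and 7 without and 0, 0 and 1 with stimulation. With the Batf3 vector they were 10, 15 and 12, and 1, 1 and 0 after stimulation. The ratio of non-stimulated to stimulated level was 40.9 (exact Clopper-Pearson 95% interval 7.0 to 1651) in control and 16 (4.12 to 137) in Batf3 cells, and these intervals cover counting error only. At this depth 3 reads in a library stand for 0.191 to 0.228 CPM, so the stimulated level is not resolved. Tet1 was not called for the vector in either culture, and its non-stimulated libraries overlapped.

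Per length, Tet3 made up 70.6 ± 2.33% of the Tet sum in non-stimulated and 62.5 ± 0.128% in stimulated control cells, and 74.9 ± 1.31% and 65.1 ± 0.312% in Batf3 cells (SD, n = 3). Tet2 made up 28.3 ± 2.41% and 37.5 ± 0.124% in control cells, and 24.4 ± 1.22% and 34.9 ± 0.324% in Batf3 cells. The Tet sum was 6.36 and 11.2 CPM per kb in control cells and 7.95 and 15.2 CPM per kb in Batf3 cells, without and with stimulation. By group mean, the order of the groups for Tet3 was also that of the summed markers of CD4 T cells. The sums lay between 13.1 and 15.8 CPM in non-stimulated control cells and 23.0 and 24.95 CPM in non-stimulated Batf3 cells. They lay between 24.5 and 26.9 CPM in stimulated control cells, which overlapped the non-stimulated Batf3 cells, and 64.7 and 67.6 CPM in stimulated Batf3 cells. Of their 3 genes Cd4 itself stayed at or below 0.667 CPM in every library, and Cd40lg, which activated T cells express, gave 56.5 of the CPM in stimulated Batf3 cells. None of the 3 was at 0 in all libraries of a group. The part of such cells in the Tet3 result was not tested.

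Ezh2 measured 111, 116 and 113 CPM in non-stimulated and 64.4, 66.2 and 62.9 CPM in stimulated control libraries. Batf3 libraries gave 116, 123 and 119.8 CPM, and 84.6, 79.3 and 70.2 CPM after stimulation. The stimulated groups lay below the non-stimulated ones, with a log2 change of -0.81 ± 0.05 (control) and -0.62 ± 0.05 (Batf3). The third stimulated Batf3 library, which stood apart from its replicates over all genes, had the lowest Ezh2 of the 3, and without it the change in Batf3 cells was -0.55.

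The partners of EZH2 did not fall as a set. Of 12 PRC2 genes 6 rose, 5 fell and 1 was not called on stimulation of control cells (median 0.16). Over all tested genes 39.6% rose and 40.7% fell in this comparison, which also stands beside the counts of the other lists below. The core subunits Eed, which reads methylated lysine 27, and Suz12, the scaffold, rose by 0.54 ± 0.05 and 0.26 ± 0.04. Ezh1, the alternative catalytic subunit of resting cells, fell by 1.33 ± 0.07 on the log2 scale. The accessory subunits Aebp2 (1.30 ± 0.03) and Epop (1.25 ± 0.05) rose, and Phf19 (-2.87 ± 0.16) and Phf1 (-2.45 ± 0.16), which bind methylated lysine 36 of H3, fell.

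The demethylases of lysine 27 changed as well. Kdm6b, which removes the mark that EZH2 writes, rose from 57.5 ± 1.37 to 813 ± 8.81 CPM (SD, n = 3) on stimulation of control cells, a log2 change of 3.82 ± 0.03. In Batf3 cells it rose from 59.8 ± 0.669 to 887 ± 15.2 CPM (3.89 ± 0.03). Kdm6a, its X-linked relative, fell by 0.33 ± 0.05 and 0.31 ± 0.05 on the log2 scale. Uty, the Y-linked copy, had at most 0.0442 CPM as a group mean and was not tested.

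PRC1, some forms of which bind lysine 27 methylation, had genes that went both ways, about as often as all tested genes did. Of its 19 genes 8 rose and 9 fell on stimulation of control cells (median -0.17), where 39.6% of all tested genes rose and 40.7% fell. Kdm2b, which brings a PRC1 form to unmethylated CG-rich DNA, rose by 1.68 ± 0.04, and Pcgf6 by 1.21 ± 0.06. The chromodomain subunit Cbx2, which reads the mark, changed by -3.58 ± 0.19.

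The Batf3 vector went with calls for 4 of the 8 regulators in non-stimulated and 7 of the 8 in stimulated cells, and Uhrf1 alone was called in opposite directions. In non-stimulated cells 1 of the 8 rose (Tet3) and 3 fell (Dnmt3a, Dnmt3b and Uhrf1), where 39.3% of all tested genes were called (16.3% rose and 23.0% fell). In stimulated cells 5 rose (Dnmt1, Uhrf1, Tet2, Tet3 and Ezh2) and 2 fell (Dnmt3a and Dnmt3b), where 29.5% of all genes were called (14.8% rose and 14.6% fell). The median log2 change of the 8 was -0.08 in non-stimulated cells (all genes, -0.02) and 0.39 in stimulated cells (all genes, 0.0016). With library totals alone in place of TMM, risers made up 60.1% of the called genes in non-stimulated cells instead of 41.5%, and 65.6% instead of 50.3% in stimulated cells.

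Tet3 was higher with Batf3 in both cultures, by 0.41 ± 0.04 without (adjusted p = 4.97e-13 by edgeR) and by 0.50 ± 0.04 with stimulation (adjusted p = 1.53e-17). Both de novo enzymes were lower in both cultures. Dnmt3b changed by -0.34 ± 0.08 and -0.21 ± 0.07, and Dnmt3a by -0.15 ± 0.04 and -0.14 ± 0.03, without and with stimulation. These are small beside the effect of stimulation: the Batf3 level of Dnmt3a was 1.11-fold lower in non-stimulated cells, against a rise of over 10-fold on stimulation. The fall of Dnmt3a in non-stimulated cells was not called with library totals alone (-0.08, adjusted p = 0.140 by edgeR) or in a fit of those 6 libraries alone (-0.12, adjusted p = 0.0506). The fall of Dnmt3b in stimulated cells was not called with library totals alone (-0.17, adjusted p = 0.0578) or without the second stimulated Batf3 library (-0.18, adjusted p = 0.0704).

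Dnmt1, Uhrf1, Tet2 and Ezh2 were higher with Batf3 in stimulated cells, by 0.57 ± 0.04, 0.43 ± 0.05, 0.34 ± 0.05 and 0.27 ± 0.05 on the log2 scale. In non-stimulated cells Dnmt1 differed by -0.03 ± 0.03 (adjusted p = 0.469 by edgeR), Tet2 by 0.11 ± 0.06 (0.172) and Ezh2 by 0.08 ± 0.04 (0.131), none of them called, and Uhrf1 fell by 0.13 ± 0.04 on the log2 scale. The sign for Dnmt1 turned to 0.04 with library totals alone, and the fall of Uhrf1 in non-stimulated cells was then not called (-0.05, adjusted p = 0.265 by edgeR). Ezh2 was called as higher in non-stimulated cells in 7 of 17 alternative analyses, among them the fit of those 6 libraries alone (0.11, adjusted p = 0.0134 by edgeR). Tet2 was called there with library totals alone (0.18, adjusted p = 0.0156) and without the first non-stimulated control library (0.19, adjusted p = 0.0176).

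The difference between the Batf3 effects in the 2 cultures was tested as an interaction. It was above 0 and called for 4 of the 8 regulators and below 0 for none, where 20.7% of all tested genes were called (14.6% above and 6.08% below 0). Dnmt1 had an interaction of 0.60 ± 0.05 (adjusted p = 2.37e-15 by edgeR) and Uhrf1 of 0.56 ± 0.06 (adjusted p = 8.62e-12). Those of Tet2 (0.23 ± 0.08, adjusted p = 0.0283) and Ezh2 (0.19 ± 0.07, adjusted p = 0.0238) were smaller and were lost in 10 of 16 alternatives each. For Tet2 this included leaving out the first non-stimulated control library (0.14, adjusted p = 0.253), and for Ezh2 leaving out the first stimulated Batf3 library (0.10, adjusted p = 0.338 by edgeR). For Dnmt3a (0.01 ± 0.05), Dnmt3b (0.13 ± 0.11) and Tet3 (0.09 ± 0.06) the interaction was not called, nor was it for Tet1 (1.16 ± 2.02).

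**Figure D3:**
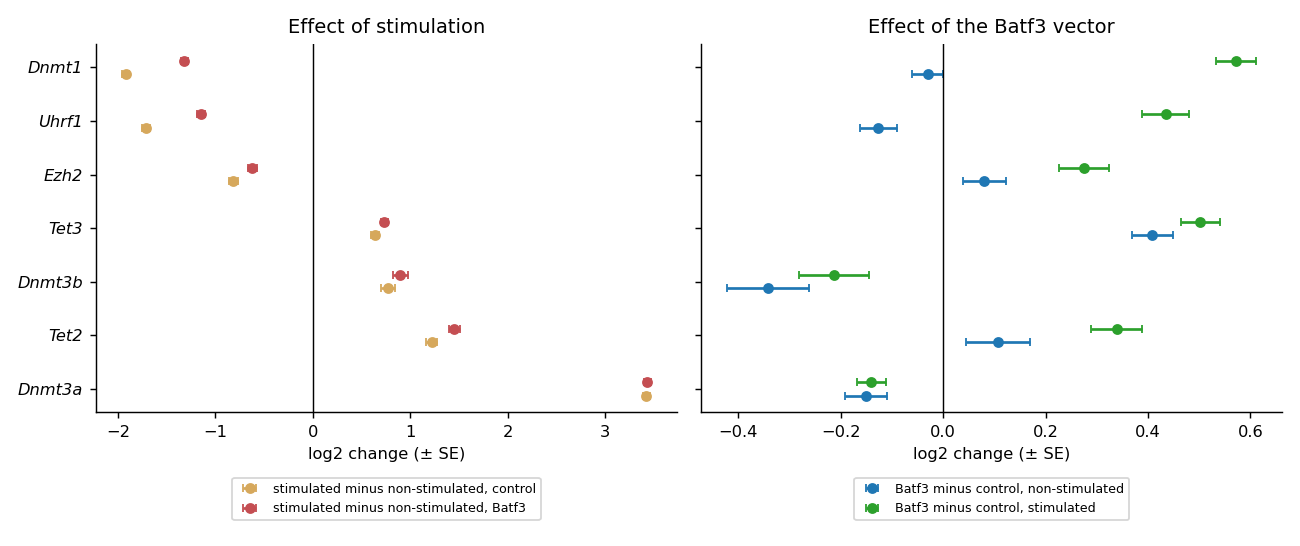
Log2 change (x axis) of 7 regulators on stimulation (left, control and Batf3 vector) and with the Batf3 vector (right, non-stimulated and stimulated), with points for the fitted change and bars for ± SE. Tet1 is left out because 2 groups hold 1 and 2 reads. The points for Dnmt3a lie together in both panels, while those for Dnmt1 and Uhrf1 are apart by 0.60 and 0.56.

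The cell cycle lists moved beside these differences. Over all tested genes 16.3% rose and 23.0% fell with Batf3 in non-stimulated cells, and 14.8% rose and 14.6% fell in stimulated cells. Interactions were called above 0 for 14.6% and below 0 for 6.08%. These shares also stand beside the Batf3 counts of the other lists below. With Batf3 in stimulated cells 18 of 20 replication genes rose and 0 fell (median 0.50), and all 20 mitosis genes rose (median 0.63). In non-stimulated cells the lists parted: 12 of 20 replication genes fell and 2 rose (median -0.21), with Mcm2 and Mcm6, subunits of the replicative helicase, at -0.62 ± 0.03 and -0.52 ± 0.03, while all 20 mitosis genes rose (median 0.35). With library totals alone 9 replication genes fell and 4 rose there. Of the replication list 16 of 20 had a called interaction above 0 (median 0.71). Mcm2 stood at 1.13 ± 0.05 and Mcm6 at 1.07 ± 0.05, and 12 of the 20 mitosis genes were called (median 0.27). Rrm1, a replication gene of the list, was among the 3 genes whose level over the 12 libraries was most like that of Dnmt1. The others were Vim and Sash3, which are on neither list, and the 3 were close to a tie (r = 0.999 for Vim and Sash3 and 0.998 for Rrm1). The 3 genes most like Uhrf1 (Znfx1, Arhgap30 and Trbc1) are on neither list as well. The part of cell cycle state in the Batf3 differences of Dnmt1 and Uhrf1 was not tested.

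The E2F and RB family was split in the same comparisons. With Batf3 in non-stimulated cells 6 of 13 rose and 4 fell, and in stimulated cells 7 rose and 1 fell (E2f5, -0.29 ± 0.09). E2f1, an activator of replication genes, fell by 0.52 ± 0.08 on the log2 scale without stimulation and rose by 0.46 ± 0.10 with it. Its interaction of 0.98 ± 0.13 was the highest of the list. The activator E2f2 and the repressor E2f7 rose in non-stimulated cells by 0.79 ± 0.04 and 0.80 ± 0.08. On stimulation of control cells 8 of 13 fell and 4 rose, with E2f2 at -4.38 ± 0.11 and Rbl2, a relative of RB, at -2.90 ± 0.09, and E2f5 at 1.78 ± 0.11 and E2f4 at 0.63 ± 0.03.

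Around Ezh2, 3 of the 12 PRC2 genes rose with Batf3 in stimulated cells and 0 fell (median 0.04). These were Phf19 (1.21 ± 0.18), Jarid2, which brings PRC2 to its targets (0.65 ± 0.05), and Rbbp4, a histone-binding subunit (0.12 ± 0.04). In non-stimulated cells 4 rose and 5 fell (median -0.05), and Jarid2 was among those that fell (-0.29 ± 0.04), as was Epop (-0.43 ± 0.06). The interaction of Jarid2 was 0.94 ± 0.06 and that of Phf19 0.97 ± 0.20. Eed (-0.06 ± 0.05 in both cultures) was not called, and Ezh1 rose by 0.26 ± 0.05 in non-stimulated cells and was not called in stimulated ones (0.04). Kdm6b rose by 0.13 ± 0.03 in stimulated cells. Of the 19 PRC1 genes 5 went up and 5 down without stimulation, where 16.3% of all tested genes rose and 23.0% fell. With stimulation 3 went up and 1 down, where 14.8% of all tested genes rose and 14.6% fell. Phc2, a polymerising subunit of PRC1, changed by -0.36 ± 0.03 and by 0.29 ± 0.04 in these cultures.

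**Figure D4:**
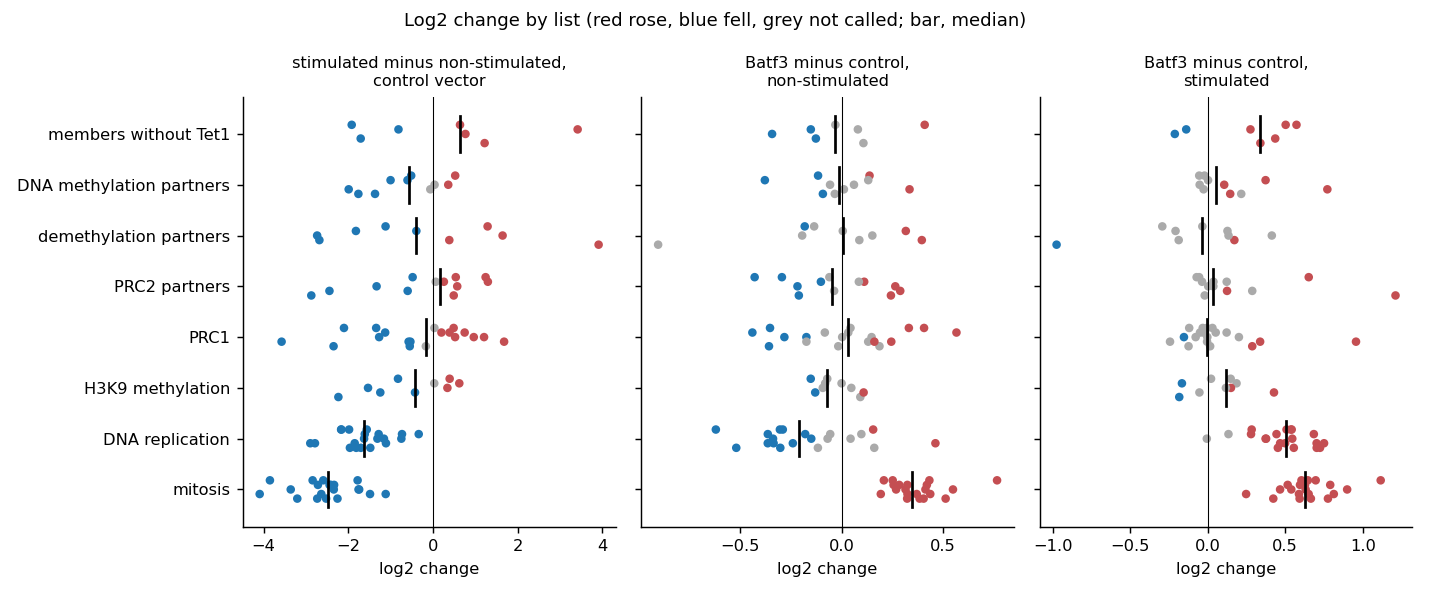
Log2 change (x axis) of single genes in the regulators without Tet1 and in 7 lists (rows) for 3 comparisons, with red for genes that rose, blue for genes that fell, grey for genes not called and a black bar for the median. The replication and mitosis rows lie wholly below 0 on stimulation of control cells, and in the Batf3 comparisons the replication row is mostly below 0 without and above 0 with stimulation.

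Of 11 partners and readers of DNA methylation 10 were tested, and on stimulation of control cells 2 rose and 6 fell (median -0.56). Mbd3, a subunit of a deacetylase complex (0.53 ± 0.04), and Usp7, a deubiquitinase that binds DNMT1 and UHRF1 (0.36 ± 0.03), rose. Zbtb38 (-1.99 ± 0.13) and Zbtb4 (-1.76 ± 0.11), zinc finger proteins that bind methylated DNA, fell, as did the UHRF1 relative Uhrf2 (-0.51 ± 0.05). Hells, a remodeller that DNA methylation depends on, fell with Batf3 in non-stimulated cells (-0.38 ± 0.05) and rose in stimulated cells (0.37 ± 0.05), as Uhrf1 did, with an interaction of 0.75 ± 0.07. With Batf3, 2 of the 10 rose and 3 fell in non-stimulated cells and 4 rose and 0 fell in stimulated cells. Dnmt3l, a cofactor of de novo methylation in germ cells, had at most 17 reads in a group and was not tested.

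Of 10 genes that act with or after the TET enzymes 9 were tested, and on stimulation of control cells 4 rose and 5 fell (median -0.39). Tdg, the glycosylase that removes oxidised methylcytosine, rose by 1.29 ± 0.04, and Cxxc5, a zinc finger protein that binds CG-rich DNA, rose from 0.883 to 13.5 CPM (3.92 ± 0.25). D2hgdh, a mitochondrial dehydrogenase that clears the TET inhibitor D-2-hydroxyglutarate, changed by -2.68 ± 0.14, and the glycosylase Mbd4 by -2.74 ± 0.19. With Batf3, Ogt, an O-GlcNAc transferase that binds TET2 and TET3, rose by 0.39 ± 0.03 without and 0.17 ± 0.03 with stimulation, and Cxxc5 was lower with stimulation (-0.98 ± 0.13). Smug1 rose (0.32 ± 0.08) and Tdg fell (-0.18 ± 0.04) in non-stimulated cells.

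Of 7 genes of methyl donor supply 3 rose and 1 fell on stimulation of control cells (median 0.07). Mtap and Mtrr, of methionine salvage and methionine synthesis, rose by 1.69 ± 0.04 and 1.62 ± 0.05, and Mat2a, which makes S-adenosylmethionine, the methyl donor of all methyltransferases here, by 1.13 ± 0.03. With Batf3 in non-stimulated cells 5 of 7 fell and 0 rose (median -0.33), with Mtap at -0.52 ± 0.05, Mtrr at -0.37 ± 0.06 and Mat2a at -0.33 ± 0.03. In stimulated cells 2 of 7 fell and 0 rose (median -0.08), with Mat2a at -0.15 ± 0.03.

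Of 9 genes of histone H3 lysine 9 methylation 3 rose and 5 fell on stimulation of control cells (median -0.42). Ehmt2, which writes the mark in euchromatin, changed by -2.23 ± 0.06, and Suv39h2, which writes it in heterochromatin, by 0.62 ± 0.12. With Batf3, 1 rose and 2 fell in non-stimulated cells and 2 rose and 2 fell in stimulated cells. The HP1 gene Cbx5 rose in both, by 0.11 ± 0.04 and 0.43 ± 0.04.

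Genes on which these marks are known to act in T cells were listed as well. In a list of 12 genes of naive and memory T cells, several of which are known to gain DNA methylation or lysine 27 methylation in effector cells, 10 fell and 2 rose on stimulation of control cells (median -1.88). S1pr1, the receptor for exit from lymphoid organs, changed by -5.73 ± 0.14. The risers were Id3 (0.30 ± 0.08) and Bach2 (0.11 ± 0.05), whose sign turned with library totals alone (-0.0779). With Batf3, 9 rose and 2 fell in non-stimulated and 8 rose and 3 fell in stimulated cells. Tcf7, a factor of naive and memory cells that DNMT3A is known to methylate, fell in both (-0.20 ± 0.03 and -0.77 ± 0.05), while Il7r, the receptor for the survival cytokine IL-7, rose in both (1.87 ± 0.07 and 1.96 ± 0.16). None of 9 germline genes whose promoters are held silent by DNA methylation passed the filter, and the highest value of any of them in a library was 0.609 CPM (Tdrd9). Neither DNA methylation nor histone marks were measured in these libraries.

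Set side by side per length, Uhrf1 (44.9 CPM per kb) and Dnmt1 (40.6) led the regulators in non-stimulated control cells, followed by Ezh2 (17.0), Tet3 (4.49), Dnmt3b (3.94), Dnmt3a (3.63), Tet2 (1.80) and Tet1 (0.0672). Neighbours in this order did not overlap between libraries, but the order depends on the exon lengths used. In CPM, without length scaling, Dnmt1 (299) lay above Uhrf1 (191) and Dnmt3a (60.5) above Dnmt3b (20.1) in these cells. In stimulated control cells Dnmt3a came first (38.9 CPM per kb), before Uhrf1 (13.8), Dnmt1 (10.7), Ezh2 (9.66), Tet3 (7.0), Dnmt3b (6.72) and Tet2 (4.2), and of the neighbours only Tet3 and Dnmt3b overlapped. With the Batf3 vector the order of the first 4 was the same in each culture. Uhrf1 and Dnmt1 (41.1 and 39.7 CPM per kb) overlapped in non-stimulated Batf3 cells, as did Dnmt3a and Dnmt3b (3.27 and 3.11).

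The genes whose levels were most like those of each regulator over the 12 libraries are given as a description, by Pearson's r of log2(CPM + 1) among the 8331 genes whose mean reached 10 CPM. The 12 libraries form 4 groups of technical replicates, so r mostly reflects the group means. For Dnmt1 they were Vim, the filament protein vimentin, Sash3 and Rrm1 (r = 0.999, 0.999 and 0.998). For Dnmt3a they were Sla, Ccl1, a chemokine, and Nfkb1, a subunit of NF-kappaB (1.000 each), and Ccl1 went from 1.90 to 3703 CPM in control cells. For Uhrf1 they were Znfx1, Arhgap30 and Trbc1 (0.998 each), of which Trbc1 has a near-identical copy that could share its reads. For Tet3 they were Rora, a nuclear receptor, Tigit, an inhibitory receptor, and Atxn1 (0.993, 0.992 and 0.991), and Tigit measured 18.2, 32.4, 42.7 and 109.6 CPM in non-stimulated control, non-stimulated Batf3, stimulated control and stimulated Batf3 cells. For Tet2 they were Klhl21, Pdcd1lg2 and Dsp (0.997 each), for Ezh2 Cip2a, Creb1 and Hrh2 (0.995 each), and for Dnmt3b Ywhae, Eef1b2 and Impdh1 (0.994, 0.993 and 0.993). Those of Tet1 (Dhrs4, Hmgb1-ps4 and H3f3a-ps1) rest on a handful of reads, and 2 of them are pseudogenes that can share reads with their parent genes.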

How the data were processed

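RNA was measured in 12 libraries, 3 in each of 4 groups taken from the labels. Polyadenylated RNA was made into stranded libraries, per the labels' protocols. The deposited table holds raw read counts per gene, aligned to GRCm38 with STAR 2.7 and counted with featureCounts, per the submitters' processing notes. Which annotation release, strand setting and rule for reads with several alignments were used is not given in the sources used here. Of the 55335 identifiers 55154 matched GENCODE M21, and 0 columns of values were left unmapped.

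Counts were filtered with filterByExpr (15702 genes left), scaled by TMM and fitted with 4 group means over all 12 libraries (edgeR 4.0.16 quasi-likelihood, robust, R 4.3.3, 8 residual degrees of freedom). Tests were two-sided. Log2 changes carry the SE of the fit, CPM the SD of 3 libraries. The code was tested on simulated counts. Alternatives were library totals alone, DESeq2 1.42.0, no filter, the 6 libraries of a comparison alone, a replicate block, no length scaling and leaving out each library.

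Named genes were all 8 regulators, core PRC2 genes, H3K27 demethylases, up to 2 called genes per list, comparison and direction with at least 1 CPM, and the 3 genes most like each regulator. Rbbp4, Dnmt3l, Tdrd9, Ahcy, E2f6 and Zbtb7b were named outside this rule, after their values were seen. The regulators and all lists were chosen with earlier results of these data known. Values of 4 listed genes are not reported here.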

Additional observations from a re-analysis of the deposited data

Results flagged for a closer look

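The effect of the Batf3 vector differed between stimulated and non-stimulated cells for 4 of the 8 regulators, by the interaction test of edgeR with Benjamini-Hochberg adjustment over all tested genes, of which 20.7% were called (14.6% above and 6.08% below 0). The difference, as the effect in stimulated minus that in non-stimulated cells, was 0.60 ± 0.05 on the log2 scale for Dnmt1 (SE, n = 3 libraries per group, adjusted p = 2.37e-15), since the vector left it within 0.03 of control without stimulation and 0.57 higher with it. For Uhrf1 it was 0.56 ± 0.06 (adjusted p = 8.62e-12), with a fall of 0.13 without and a rise of 0.43 with stimulation. For Tet2 it was 0.23 ± 0.08 (adjusted p = 0.0283) and for Ezh2 0.19 ± 0.07 (adjusted p = 0.0238). The calls for Tet2 and Ezh2 were each lost in 10 of 16 alternatives, with adjusted p up to 0.253 and 0.338 by edgeR, and those for Dnmt1 and Uhrf1 in 0 of 16.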

How the results depend on the processing

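The directions of the 8 regulators on stimulation, and their calls, were the same under all alternatives that gave a value. Scaling by library totals alone moved the median of all genes on stimulation by -0.19 (control) and -0.21 (Batf3) on the log2 scale. In non-stimulated cells that scaling left 2397 genes that fell with Batf3 in place of 3615, with 3 regulators that rose and 1 that fell in place of 1 and 3; the fit of the 6 libraries alone gave 2 that rose, and leaving out single libraries gave 1 to 2. In stimulated cells 1 regulator fell in place of 2 with library totals alone, and 1 to 2 when single libraries were left out. Interactions above 0 numbered 1524 genes without the filter in place of 2296. Of the regulators 2 kept a called interaction with library totals alone, with DESeq2 and without the filter, and 2 to 4 when single libraries were left out. The Tet2 interaction ranged from 0.14 to 0.28 (adjusted p 0.0129 to 0.253) and that of Ezh2 from 0.10 to 0.27 (adjusted p 0.000478 to 0.338); the cause was not tested. Besides the libraries named above, these calls were lost without any 1 of the stimulated control libraries, the first non-stimulated Batf3 library or the first or second stimulated Batf3 library, and for Ezh2 also without the second non-stimulated control library.

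With library totals alone the small changes of 7 genes on stimulation turned sign. In control cells these were Ahcy (-0.11), Cbx1 (-0.15) and Bach2 (-0.0779), and in Batf3 cells Hells (-0.0659), Ogt (-0.0512), Ahcy (-0.0437), Phc2 (-0.12) and E2f6 (-0.14). Of the counts of called genes over all genes, the lists and the alternatives, 151 moved by over 1.5 times or to or from 0, and 2201 did not. With library totals alone, 1 partner of DNA methylation in place of 3 and 3 PRC2 genes in place of 5 fell with Batf3 in non-stimulated cells, and 0 genes of the naive and memory list in place of 2 rose on stimulation of control cells. Levels and family shares moved by more than 1 SD in 38 of 56 cases under library totals alone or without length scaling. Replicate numbers did not pair the libraries (correlations of same-numbered libraries from -0.05 to 0.03). With a replicate block 2502 genes rose and 3557 fell with Batf3 in non-stimulated cells, and the counts of called regulators were those without the block in all 5 comparisons. For Tet1, DESeq2 gave no adjusted p in some comparisons.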
